A study of Homo sapiens and Mus musculus with 12 samples.

Results

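The cytosolic ribosomal protein genes encode the proteins that, with the ribosomal RNAs, build the small and the large subunit of the ribosome that translates nuclear mRNAs. They were taken as every protein-coding gene of the count tables whose symbol was RPL or RPS with a number, *RPLP0*, *RPLP1*, *RPLP2* or *RPSA*, leaving out kinases, paralogs marked by a final L, Y-linked copies and symbols with further letters, such as those of readthrough genes. This rule gave 77 genes in each line, 31 of the small and 46 of the large subunit, and the same 77 after letter case was ignored, out of 63677 human and 47729 mouse gene identifiers. RNA-seq was made from MDA-MB-231, a human triple-negative breast cancer line (the human line), and 4T1, a mouse mammary carcinoma line (the mouse line), both wild type by their labels and grown in one medium. Each line received the multikinase inhibitor ponatinib at 1 µmol/L, or its solvent DMSO, for 24 h, with 3 libraries per group and 12 in all. Each line is 1 cell culture model, and nothing in the labels says that the 3 libraries of a group came from separate cultures, so that p-values measure only the spread between these libraries.

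Ribosomal proteins are made in nearly equal numbers, because each mature ribosome holds one copy of almost every one of them, and surplus protein is degraded. Their genes are transcribed at very high levels in growing tumor cells, and MYC raises their transcription together with that of the ribosome assembly factors. Most of their mRNAs start with a C and a run of pyrimidines, the 5′ terminal oligopyrimidine (TOP) tract, through which the kinase mTORC1 and the protein LARP1 set how much of the mRNA is translated; an RNA-seq count measures the mRNA and not its translation.

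The libraries held 15012884 to 17301760 counts in the human line and 17800675 to 18951493 in 4T1. Of 12 markers checked against the labelled epithelial type, *KRT8* and *KRT18* were present in every library of both lines. *CDH1* gave 1 count over all 6 MDA-MB-231 libraries against 96945 in 4T1. Other epithelial markers were low in both, with 727 and 291 counts of *EPCAM*, 122 and 994 of *KRT14* and 0 and 1 of *KRT5*. The mesenchymal marker *VIM* gave 100148 and 382154. Of the immune markers, *PTPRC* gave 0 counts in the human line and 8 in 4T1, *CD3E* 1 and 0, and *CD68* 3 and 189. Of the fibroblast markers, *COL1A1* gave 5024 and 655 and *PDGFRA* 5 and 244. Levels are given as CPM, counts scaled to a common library total by TMM factors, which set the bulk of genes to no change. Changes are log2 fold changes of ponatinib over DMSO from edgeR's quasi-likelihood test, with p-values adjusted by Benjamini-Hochberg over all genes tested and a threshold of 0.05. Libraries with the same replicate number deviated together in both lines over all genes. Values with the replicate number as a block are therefore also given for several of the named genes whose call differs with it.

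The TOP tract was looked for in human promoter sequences from RefSeq (GRCh38.p14), which matched 62 of the 77 human genes. It was counted where an annotated start was a C that opened a run of at least 5 bases of C or T on the gene's own strand. Of the 62 genes, 46 (74.2%) had such a start, against 963 of 15055 protein-coding genes in the count tables (6.40%), 1404 of all 27305 genes of the promoter table (5.14%) and 6 of 74 mitochondrial ribosomal protein genes (8.11%), whose products build the separate ribosome of mitochondria. The windows run from 10 bases before the annotated start to 15 bases from it, with the tract in capitals. They are shown for genes of each subunit whose values are given further on, with *RPL6* and *RPL27* as examples without the tract. A match describes these letters only and not a site at work.
RPS6 (chr9:19380222-19380246, minus strand): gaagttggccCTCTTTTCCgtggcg
RPSA (chr3:39406710-39406734, plus strand): tgccgcctgtCTTTTCCgtgctacc
RPLP0 (chr12:120201097-120201121, minus strand): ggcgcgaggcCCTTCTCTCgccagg
RPLP1 (chr15:69452808-69452832, plus strand): ggcgcgagagCCCCTTTCCTCagct
RPL12 (chr9:127451392-127451416, minus strand): cgatttccggCCTCTCggctttcgg
RPL13A (chr19:49487598-49487622, plus strand): aaacctcctcCTTTTCCaagcggct
RPL34 (chr4:108620566-108620590, plus strand): cttttttcttCCTCTTCCggggacg
RPL36A (chrX:101391001-101391025, plus strand): ctcgcggtttCTTTCTTTCCgcgcc
RPL6 (chr12:112409271-112409295, minus strand): gacggcgcgtgcactgtgttcctgg
RPL27 (chr17:42998409-42998433, plus strand): gtgaaaggttagcggaagtgtcctt
*RPL6* and *RPL34* each have a second annotated start, which is without a tract. The tract lengths ranged from 6 bases in *RPL12* to 11 in *RPLP1* among the genes shown. In MDA-MB-231, the median log2 fold change was -0.00084 for the 46 genes with the tract, -0.07 for the 16 without it and -0.01 for the 14 tested genes with no matched promoter. A further 713 tested genes that are no ribosomal proteins also started with the tract, and 210 of them were called higher and 197 lower, with a median of 0.0033, near the 27.2% and 26.8% of all genes tested.

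Before treatment, the genes spanned a wide range of levels. Per kb of the annotation's canonical transcript, the median gene stood at 986 CPM in DMSO-treated MDA-MB-231 cells and at 616 CPM in 4T1 cells. *RPLP0*, the acidic scaffold of the stalk that recruits translation factors, was the highest in both, at 4025 ± 412 CPM per kb (SD, n = 3) in the human line and 3698 ± 514 in 4T1. *RPL8*, which lies close to the peptidyl transferase center, came next at 3875 ± 556 and 2845 ± 302, so that the first and second place differed by less than the SDs in MDA-MB-231. *RPLP1* and *RPL41*, the shortest ribosomal protein, followed in 4T1 at 2570 ± 364 and 2557 ± 280. Across the 77 genes the levels per kb of both lines had a Spearman correlation of 0.236, a description over genes that share libraries and whose canonical transcript differs in length between the species.

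A small number of genes had almost no counts, although their proteins are needed in every ribosome. In MDA-MB-231, *RPL17* had 83 counts over all 6 libraries, *RPL36A* 175, *RPS10* 234, *RPL26* 1107 and *RPS15A* 2026, and 7 of the 77 genes had under 1000 counts in at least 1 library. In 4T1, *Rpl24* had 22 counts, *Rpl29* 2684 and *Rpl34* 3834, and 4 genes were under that floor. Most bases of some of these genes also belong to another gene: exons of the readthrough gene *RPL17-C18orf32* covered 96.9% of *RPL17* and those of *RPS10-NUDT3* 84.0% of *RPS10* (GENCODE v44, hg38). At least 80% of the exon bases were shared in 3 human genes and 1 mouse gene (*Rpl24*, 81.5%, GENCODE vM39, GRCm39), and all 4 were under the floor. Reads were also counted at pseudogenes. *RPL36AP37* held 37.9 times the counts of *RPL36A* and *RPL17P7* 30.2 times those of *RPL17*. In 4T1, *Rpl34-ps1* held 15.6 times the counts of *Rpl34* and *Rps2-ps10* 8.68 times those of *Rps2*. The part of these shared and copied sequences in the low counts was not tested.

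The 77 genes together took between 5.86% and 8.87% of the counts of each library. In MDA-MB-231 they held 8.12%, 7.31% and 7.01% of counts in DMSO replicates 1, 2 and 3 and 8.87%, 7.87% and 7.35% with ponatinib. The group means were 7.48 ± 0.572% and 8.03 ± 0.775% (SD, n = 3), a difference of 0.553 percentage points that was smaller than either SD, and the groups overlapped. Within each replicate number the share was higher with ponatinib, by 0.757, 0.563 and 0.339 points. Replicate 1 was the highest under both treatments. In 4T1 the shares were 6.71%, 5.86% and 6.51% in DMSO and 6.001%, 6.32% and 6.73% with ponatinib, with means of 6.36 ± 0.443% and 6.35 ± 0.367%. There the share was lower with ponatinib in replicate 1 (-0.708 points) and higher in replicates 2 and 3 (0.454 and 0.225). In cultures measured in bulk, a change in RNA per cell cannot be told apart from a change in the mix of cells, and a share of counts says nothing of the total RNA per cell.

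The balance between the subunits differed little between treatments when all 77 genes were summed. Counts of small subunit genes were 0.578, 0.572 and 0.571 times those of large subunit genes in DMSO replicates 1 to 3 of MDA-MB-231, and 0.579, 0.573 and 0.559 times with ponatinib. The 4T1 ratios were 0.575, 0.580 and 0.578 in DMSO and 0.571, 0.580 and 0.578 with ponatinib. On the log2 scale the difference of the means was -0.0082 in MDA-MB-231, within the SDs of 0.0096 and 0.026, and -0.0046 in 4T1, within the SDs of 0.0067 and 0.012. The sign of this difference depended on the genes and libraries that were counted, as it was 0.0164 in MDA-MB-231 without the 5 genes with the most counts. In 4T1 it was -0.0365 without the top 5 and 0.0061 as the difference of the subunit medians. The SDs above are those of the ratio over all 77 genes. The spread of the ratio without the top 5 is not given, so that -0.0365 cannot be set against it.

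**Figure D1:**
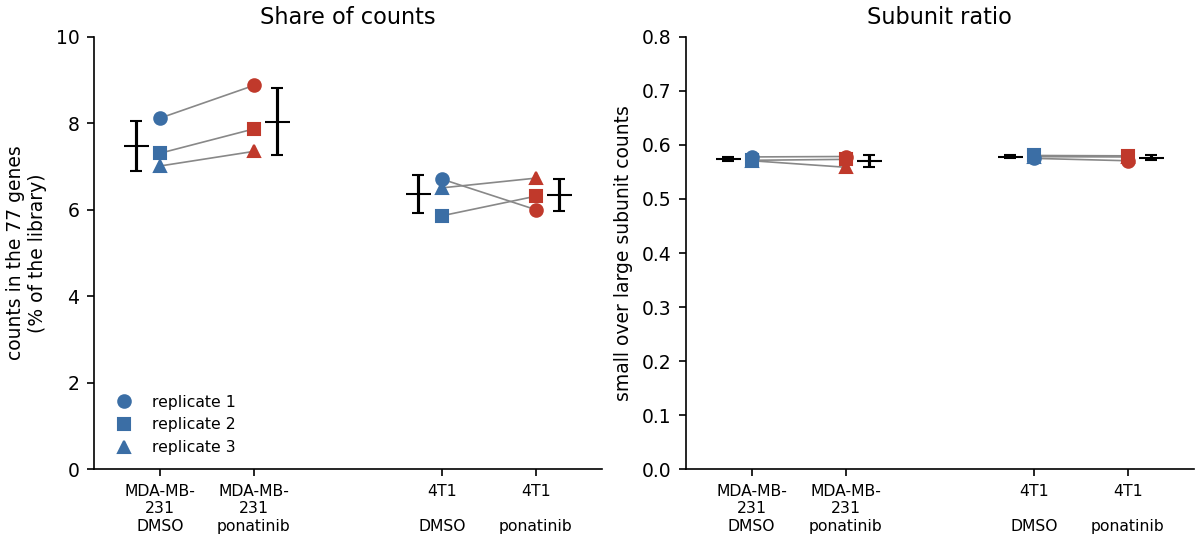
Share of all counts in the 77 ribosomal protein genes (left, % of the library) and ratio of small to large subunit counts (right) in each library, with lines joining equal replicate numbers and black marks for the group mean and SD (n = 3). In MDA-MB-231 the 3 lines run upward, from 8.12%, 7.31% and 7.01% to 8.87%, 7.87% and 7.35%, while the ratio stays between 0.559 and 0.580 in all 12 libraries.

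The first comparison asks how ponatinib altered these genes in MDA-MB-231. Nearly all of them stayed close to their DMSO level: 71 of 76 tested genes (93.4%) lay within 1.2-fold, against 33.9% of all genes tested. In edgeR's test no gene was higher and 5 were lower, all of the large subunit, where 27.2% of all 14610 genes tested were called higher and 26.8% lower. The median SD of log2 CPM within groups was 0.18 for these genes and 0.16 for all genes tested. It was 0.09 for other genes at or above the ribosomal protein genes' median level. A wider spread leaves fewer calls at a given size of change, so the number of calls is no measure of an absence of change. At an unadjusted p under 0.05 the numbers were 2 higher and 6 lower, and the share of all genes at that threshold is not given. DESeq2 also called 0 higher and 5 lower, beside 3503 and 3747 of the 28885 genes to which it gave a fold change. The median log2 fold change was -0.01 over the 76 genes, -0.0076 for the small and -0.01 for the large subunit, beside 0.02 for all genes tested.

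With the replicate number as a block, 19 genes were higher and 21 lower, beside 32.9% and 33.4% of all genes tested. Over the ribosomal protein genes alone, however, the deviations of the same-numbered libraries correlated at 0.427, -0.498 and 0.757 in replicates 1, 2 and 3. The negative value describes single genes, as their mean deviation in replicate 2 was -0.07 in DMSO and -0.05 with ponatinib. Low-count genes such as *RPL36A*, with 49 counts in DMSO replicate 2 and 14 in ponatinib replicate 2, enter that correlation. Their part in it was not tested. The fold changes were nearly the same with the block as without it, so the added calls were small changes that ran alike in the 3 replicate pairs. In all 3 pairs, 24 genes were higher and 30 lower, where 77.9% of all genes tested kept one direction. Replicate 1 moved these genes in both groups, by 0.17 and 0.19 on the log2 scale above the group mean in DMSO and ponatinib. Without DMSO replicate 1 the test called 7 genes higher and 3 lower, without ponatinib replicate 1 it called 0 and 18, without ponatinib replicate 3 it called 5 and 3, without DMSO replicate 2 it called 0 and 3, without ponatinib replicate 2 it called 1 and 3, and without both replicate 1 libraries 10 and 19. Scaling by total counts without TMM gave 14 higher and 3 lower, beside 4641 and 3097 of all 14610 genes tested. This scaling raised the median of all genes by 0.096 in this line and 0.12 in 4T1. Relative to the median of all genes, the ribosomal protein genes stood at -0.03 under both scalings in MDA-MB-231.

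The largest falls in MDA-MB-231 were in genes with few counts. *RPL17* (chr18:49488453-49492508), a protein at the mouth of the exit tunnel, had 20, 13 and 29 counts in DMSO and 3, 8 and 10 with ponatinib. The ponatinib libraries were all below the DMSO libraries, and the log2 fold change was -1.65 ± 0.45 (SE; adjusted p = 0.0088 by edgeR). Its pseudogene *RPL17P7*, with 2508 counts, had a log2 fold change of 0.04 (adjusted p = 0.85). *RPL36A* (chrX:101390824-101396155), a large subunit protein that lies near the tRNA exit site, had 34, 49 and 35 counts in DMSO and 21, 14 and 22 with ponatinib, again without overlap (log2 fold change -1.15 ± 0.28, adjusted p = 0.0049). Its pseudogene *RPL36AP37*, with 6632 counts, stood at 0.07 (adjusted p = 0.65). *RPL26*, another exit tunnel protein that also binds the p53 mRNA, was at 14.1, 12.4 and 16.2 CPM in DMSO and at 9.70, 8.71 and 8.36 CPM with ponatinib (log2 fold change -0.68 ± 0.14, adjusted p = 0.0014). These falls rested on 83, 175 and 1107 counts in all, and the part of shared or multiply placed reads in them was not tested.

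The other 2 falls were of abundant genes and small. *RPL27* was at 1254, 1068 and 1023 CPM in DMSO and at 1040, 900.1 and 849 CPM with ponatinib, with overlapping groups and a drop of like size in every pair (-0.27, -0.25 and -0.27; log2 fold change -0.26 ± 0.10, adjusted p = 0.043). *RPL6* was at 2531, 2371 and 2137 CPM in DMSO and 2182, 1923 and 1781 CPM with ponatinib, also overlapping (log2 fold change -0.26, adjusted p = 0.035). Both lost the call under total counts (adjusted p = 0.078 and 0.066) and without any 1 of 4 libraries, DMSO replicate 1 or 2 or ponatinib replicate 2 or 3. In the opposite direction, *RPL13A* had the largest positive value, chosen here after the values were seen. It was at 2391, 1965 and 1843 CPM in DMSO and 2980, 2274 and 2303 CPM with ponatinib, with overlapping groups but higher in all 3 pairs (0.32, 0.21 and 0.32), and passed with the block (adjusted p = 1.6e-07) but not without it (log2 fold change 0.29 ± 0.12, adjusted p = 0.065). *RPL13A* joins the ribosome and can leave it as part of an inhibitor of translation in inflammation.

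**Figure D2:**
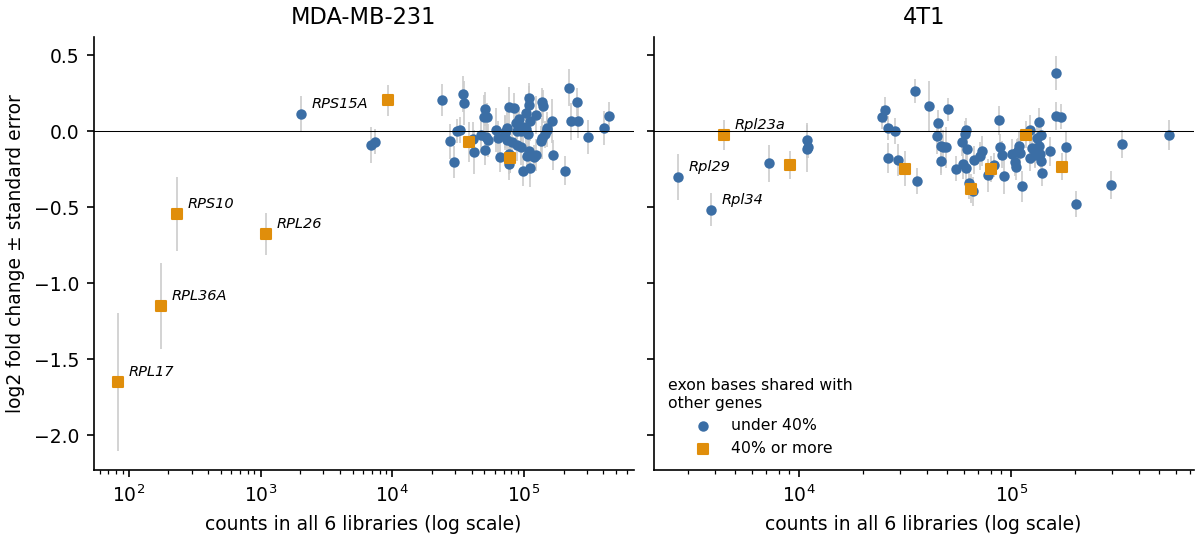
Log2 fold change of each tested ribosomal protein gene (vertical, with SE) against its counts over the 6 libraries of a line (horizontal, log scale), with orange squares where 40% or more of its exon bases belong to other genes too. In MDA-MB-231 the 4 lowest values, from -1.65 to -0.54, belong to *RPL17*, *RPL36A*, *RPL26* and *RPS10*, each with 1107 counts or fewer.

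In 4T1, the same comparison gave more calls and most of them were falls. Of 76 genes tested, 18 were lower and 2 higher, where 29.4% and 29.5% of all 13286 genes tested were called. Here the median SD of log2 CPM within groups was 0.14, against 0.09 for other genes at or above their median level. The falls were 6 of 31 small and 12 of 45 large subunit genes, and both rises were of the large subunit. The medians of both subunits were alike, -0.13, and 61 of the 76 genes had a value below 0, while all genes tested had a median of -0.00014. All 76 lay within 1.5-fold, against 66.5% of all genes tested. With the block, 30 genes were lower and 3 higher, beside 32.4% of all genes in each direction. Over the ribosomal protein genes alone, the deviations of the same-numbered libraries correlated at 0.927, 0.794 and 0.843 in replicates 1, 2 and 3. Their mean deviation in replicate 1 was 0.09 in DMSO and -0.08 with ponatinib, so that on average these genes shifted in opposite directions in these 2 libraries. Under total counts 7 were lower and 7 higher, beside 2935 and 4854 of all 13286 genes tested. The median ribosomal protein gene stood at -0.01 there, with 40 of the 76 below 0, so that the scaling set the direction of many of these genes. Their median relative to all genes was -0.13 under both. Without ponatinib replicate 1 the test called 10 lower and 4 higher, without ponatinib replicate 2 it called 10 and 2, and without DMSO replicate 1 it called 17 and 4.

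The 5 largest falls kept their call under total counts too. *Rpl12* (chr2:32851496-32855357), which forms the base of the stalk with *Rplp0*, and of whose exon bases 32.6% are shared with *Lrsam1*, was at 2049, 2142 and 2199 CPM in DMSO and 1382, 1543 and 1661 CPM with ponatinib. The groups did not overlap, and the log2 fold change was -0.48 ± 0.09 (SE; adjusted p = 0.00022 by edgeR). *Rpl34*, a large subunit protein, fell from 47.2, 36.8 and 38.4 CPM to 31.0, 26.5 and 28.0 CPM (log2 fold change -0.52 ± 0.11, adjusted p = 0.00091), and *Rpl34-ps1* with its 59922 counts had a log2 fold change of -0.26 (adjusted p = 0.047, and 0.27 under total counts). *Rpl9*, a large subunit protein near the factor-binding site, fell from 616.8, 680.3 and 726.8 CPM to 440.6, 522.5 and 575.9 CPM (log2 fold change -0.40, adjusted p = 0.0030). *Rps27a*, which is made as a fusion of ubiquitin to the ribosomal protein, and shares 63.3% of its exon bases with *Mtif2*, fell from 636.2, 657.2 and 689.4 CPM to 434.3, 523.6 and 569.5 CPM (log2 fold change -0.38, adjusted p = 0.0031). *Rpl26* fell from 1293, 951.9 and 1173 CPM to 847.4, 867.5 and 948.2 CPM (log2 fold change -0.36, adjusted p = 0.0071), with 948.2 just under the lowest DMSO value.

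Of the genes that rose in 4T1, *Rpl37a*, a zinc finger protein of the large subunit, went from 298, 267.4 and 292 CPM to 317.1, 352.4 and 359.8 CPM, without overlap (log2 fold change 0.26 ± 0.08, adjusted p = 0.0094). It kept its call under total counts and with the block. Over all 76 genes, 16 were lower and 3 higher in 4T1 with no overlap of groups, and 6 lower and 0 higher in the human line, where 63.4% and 60.4% of all genes tested had no overlap.

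**Figure D3:**
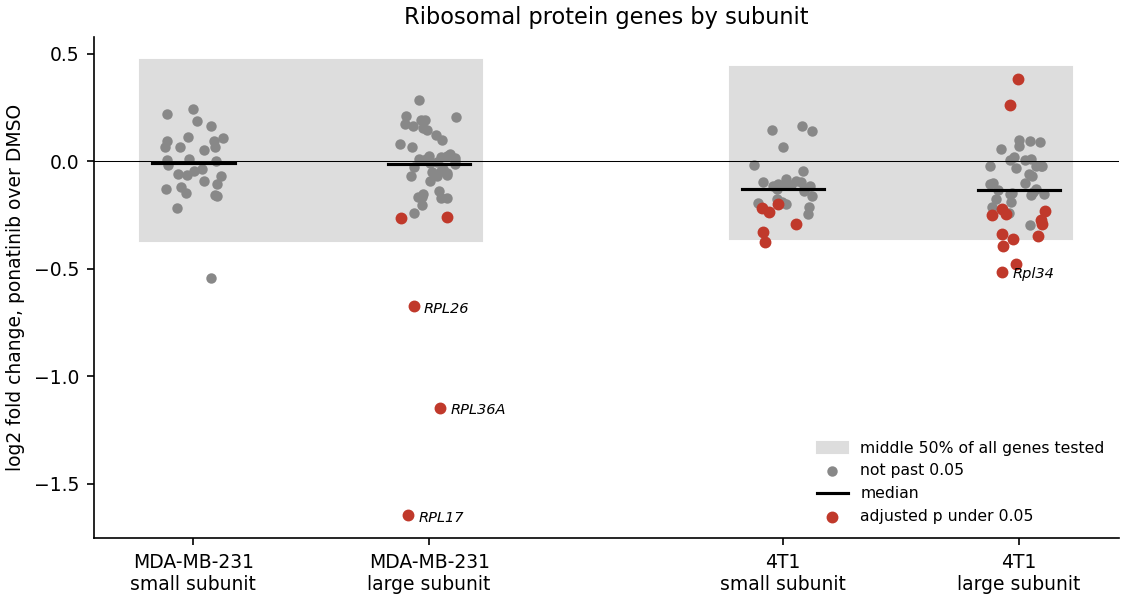
Log2 fold changes of the tested ribosomal protein genes by line and subunit, with red points past the threshold, black lines for the medians and a gray band for the middle 50% of all genes tested. The medians are -0.0076 and -0.01 in the human line and -0.13 for both subunits in 4T1. *RPL17*, *RPL36A*, *RPL26* and *RPS10* lie below the gray band in MDA-MB-231.

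Genes with a known role beyond the ribosome were described as a fixed group. *RPL5* and *RPL11* form a complex with the 5S rRNA that binds MDM2 and stabilizes p53 when ribosome assembly is disturbed. *RPL5* was at 1219, 1164 and 1121 CPM in DMSO-treated MDA-MB-231 cells and 1105, 1047 and 973 CPM with ponatinib, without overlap (log2 fold change -0.16, adjusted p = 0.090, and 0.00015 with the block). In 4T1 both fell, *Rpl5* by 0.23 on the log2 scale (adjusted p = 0.033) and *Rpl11* by 0.24 (adjusted p = 0.017), but neither under total counts (adjusted p = 0.25 and 0.17). *RPL11* in MDA-MB-231 had a log2 fold change of 0.02 (adjusted p = 0.86).

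The stalk proteins *RPLP0*, *RPLP1* and *RPLP2* recruit and activate the translation GTPases. *RPLP0* was at 4962, 4288 and 4093 CPM in DMSO-treated MDA-MB-231 cells and 5279, 4655 and 4354 CPM with ponatinib, higher by 0.09, 0.12 and 0.09 in the pairs. Its log2 fold change of 0.10 passed with the block (adjusted p = 0.0048) and under total counts (0.029), and not in the unpaired fit (0.41). *RPLP1* stood at 0.12 (adjusted p = 0.42, and 0.0053 with the block) and *RPLP2* at 0.01 (0.94). In 4T1, *Rplp0*, *Rplp1* and *Rplp2* stood at -0.02, 0.10 and -0.07, none of them past the threshold, and under total counts *Rplp0* and *Rplp2* changed sign while *Rplp1* passed (adjusted p = 0.048).

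Of the small subunit, *RPS6* is the protein that S6 kinase phosphorylates downstream of mTORC1. It was at 1542, 1297 and 1210 CPM in DMSO-treated MDA-MB-231 cells and 1320, 1235 and 1080 CPM with ponatinib (log2 fold change -0.15, adjusted p = 0.23, and 0.00064 with the block). In 4T1 it went from 802.2, 765 and 837.8 CPM to 639.8, 684.7 and 741 CPM, without overlap (log2 fold change -0.22, adjusted p = 0.028, and 0.27 under total counts). *RPSA*, also known as the laminin receptor, and *RPS19*, the gene most often mutated in Diamond-Blackfan anemia, did not pass the threshold in either line without the block, with log2 fold changes of 0.07 and 0.11 in the human line and -0.08 and 0.15 in 4T1. *RPS19* passed in MDA-MB-231 with the block (adjusted p = 0.012). *RPL22*, which also binds a small RNA of Epstein-Barr virus, stood at 0.01 and 0.09, and *RPL41* at -0.0045 and -0.13, none past the threshold. Under total counts *Rps19* (adjusted p = 0.0073) and *Rpl22* (0.024) passed as higher in 4T1. *RPS27A* in MDA-MB-231 stood at -0.09 (adjusted p = 0.48, and 0.016 with the block). Of the 19 genes of the Diamond-Blackfan list, 2 of 18 tested were lower in the human line and 5 of 19 in 4T1, and none was higher in edgeR's test, while the block gave 5 higher and 7 lower in the human line and 1 and 9 in 4T1. Total counts gave 2 higher and 1 lower in each line. Total counts called 4641 of all 14610 genes tested higher and 3097 lower in the human line, and 4854 and 2935 of 13286 in 4T1. With TMM and without the block, 26.8% of all genes tested were called lower in the human line and 29.4% in 4T1. The 5 of 19 falls in 4T1 are near that share.

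The responses of both lines were then compared gene by gene, with all 12 libraries and the 12490 shared genes that were tested. The difference passed for 11 of the 77 genes (31 with the block), where 41.9% of all genes tested differed. In 9 of the 11 the value was higher in the human line than in 4T1. *RPL12* had the clearest difference: its log2 fold change was 0.19 in MDA-MB-231, at 1437, 1296 and 1220 CPM in DMSO and 1694, 1473 and 1347 CPM with ponatinib, against -0.48 in 4T1. Within MDA-MB-231 its adjusted p was 0.11 by edgeR, and 3.4e-05 with the block. The difference was 0.74 ± 0.14 (adjusted p = 0.00026), and it passed without any 1 library. *RPL34* differed by 0.54 (adjusted p = 0.012) and *RPL8* by 0.45 (0.031). In 4T1, *Rpl8* fell by 0.35 (adjusted p = 0.0045), while *RPL8* and *RPL34* stood at 0.02 and -0.05 in MDA-MB-231. Leaving out single libraries raised their adjusted p to as much as 0.13 and 0.080. The number of differing genes ranged from 4, without 4T1 ponatinib replicate 1, to 18, without MDA-MB-231 DMSO replicate 1. It was 5, 6 and 7 without 4T1 DMSO replicate 3, ponatinib replicate 2 and ponatinib replicate 3, and 7 and 17 without MDA-MB-231 DMSO replicate 3 and ponatinib replicate 3. *RPL3*, *RPL10A*, *RPL30*, *RPL31* and *RPL37*, named after their values were seen, differed by 0.38 to 0.51. In the other direction *RPL17* differed by -1.42 and *RPL36A* by -1.08, with 83 and 175 human counts.

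Over the 75 genes tested in both lines, 35 were below 0 and 11 above 0 in both, and 25 were above 0 in the human line and below 0 in 4T1. The Pearson correlation of the fold changes was 0.14 and Spearman's 0.27, or 0.27 and 0.29 over the 67 genes that had 1000 counts or more throughout. These correlations are descriptions across genes that share libraries.

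**Figure D4:**
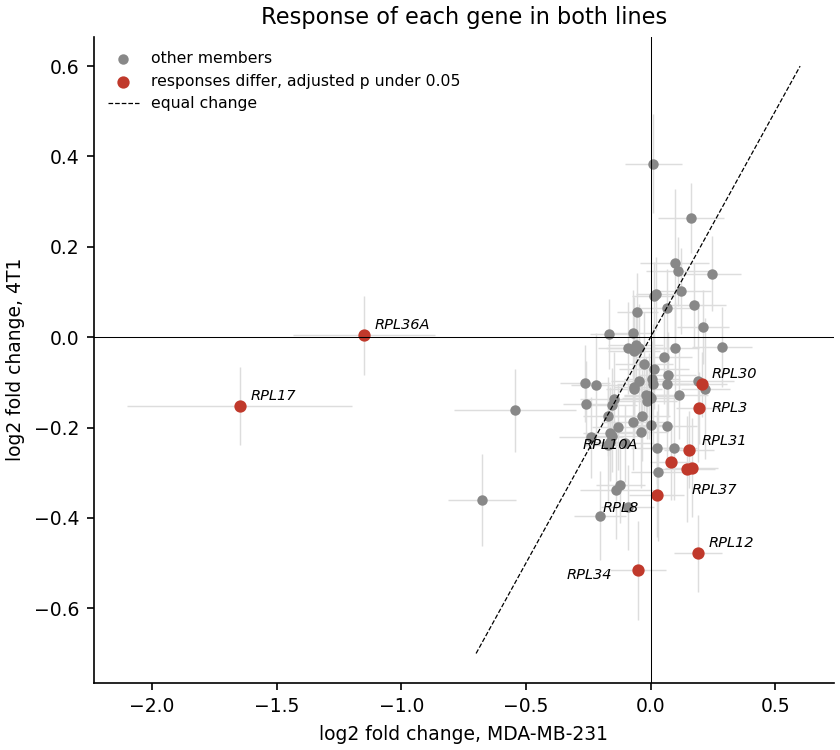
Log2 fold change of 75 ribosomal protein genes in MDA-MB-231 (horizontal) against 4T1 (vertical), with SE as gray bars, a dashed line of equal change and red points where the difference between the lines passed the threshold, labelled for large subunit genes. Most points lie close to 0 in the human line and below 0 in 4T1, and *RPL12* stands at 0.19 and -0.48.

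Genes around the cytosolic ribosome are given beside its own proteins. Mitochondrial ribosomal protein genes, 75 of which were tested in the human line and 77 in 4T1, are given first: 42 were lower and 5 higher in the human line (median -0.30), where 26.8% of all genes were called lower and 27.2% higher, and 5 were lower and 21 higher in 4T1 (median 0.12), where 29.4% and 29.5% were called. Under total counts these numbers were 31 and 9 in the human line, and 0 and 40 in 4T1. Total counts called 4641 of all 14610 genes tested higher and 3097 lower in the human line, and 4854 and 2935 of 13286 in 4T1. The difference between the lines passed for 31 of the mitochondrial ribosomal protein genes, where 41.9% of the 12490 shared genes tested differed. In 28 of the 31 the value was lower in the human line. Their share of counts did not overlap between DMSO and ponatinib in either line, at 0.560 ± 0.028% and 0.496 ± 0.032% (SD, n = 3) in the human line and 0.358 ± 0.012% and 0.418 ± 0.020% in 4T1. *MRPS24* fell in MDA-MB-231 from 16.8 ± 0.955 to 5.92 ± 0.629 CPM (log2 fold change -1.50, adjusted p = 2.6e-06), *MRPL12* by 1.19 and *MRPL17* by 0.97 on the log2 scale. In 4T1, *Mrps24* stood at 0.21 (adjusted p = 0.12, and 0.0068 with the block), *Mrpl12* at 0.02 and *Mrpl17* fell by 0.26 (adjusted p = 0.0091, and 0.11 under total counts).

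Paralogs of the ribosomal protein genes, which can take a member's place in the ribosome of some tissues, are given as a group. *RPL22L1* fell from 82.5 ± 4.14 to 34.0 ± 4.83 CPM in MDA-MB-231 (log2 fold change -1.28) and from 55.7 ± 8.86 to 39.6 ± 4.83 CPM in 4T1 (-0.49, adjusted p = 0.0024), and the lines differed (adjusted p = 0.0026). *RPL7L1*, which takes part in assembly of the large subunit, fell in both lines, by 0.56 and 0.82. *RPL39L*, mostly known from testis, fell in MDA-MB-231 from 73.1 ± 5.52 to 41.2 ± 5.17 CPM and had 0 counts in 4T1. In all, 4 of 6 tested paralogs were lower and 1 higher in the human line, and 3 of 5 lower in 4T1. Of all genes tested, 26.8% were called lower and 27.2% higher in the human line, and 29.4% lower in 4T1. Of the dedicated chaperones that carry new ribosomal proteins to the nucleolus, 5 of 6 tested were lower in the human line, *BCCIP* by 0.94 and *GRWD1* by 0.97 among them, and 3 of 5 in 4T1, of which 1 was lower under total counts.

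Translation factors are given by their counts, beside the 27.2% higher and 26.8% lower of all genes in the human line and the 29.5% and 29.4% in 4T1. Of 36 initiation factors, 20 were lower and 2 higher in the human line, and 16 of 35 lower and 3 higher in 4T1. The block gave 27 and 7 in the human line and 18 and 3 in 4T1, and total counts gave 15 and 6, and 9 and 5. Total counts called 4641 of all 14610 genes tested higher and 3097 lower in the human line, and 4854 and 2935 of 13286 in 4T1. *EIF4E*, which binds the cap of mRNAs, fell from 59.7 ± 6.34 to 28.4 ± 4.15 CPM in MDA-MB-231 (log2 fold change -1.07) and from 288.1 ± 22.02 to 183.4 ± 8.697 CPM in 4T1 (-0.65). *EIF1AX* fell by 1.14 in the human line and stood at -0.18 in 4T1 (adjusted p = 0.080, and 0.023 with the block). *EIF3C*, whose reads can fall on a near-identical copy, rose in MDA-MB-231 from 20.8 ± 7.17 to 44.9 ± 16.8 CPM. Of the elongation factors, 4 were lower and 3 higher among 8 tested in the human line, and 4 lower and 0 higher among 7 in 4T1. With the block 5 were lower and 3 higher in the human line and 4 and 0 in 4T1, and under total counts 4 and 3, and 2 and 0. *EIF5A* fell by 0.69 and 0.62, and *EEF1E1* by 0.51 and 0.35. *EIF5A2* fell by 1.29 in the human line and was not tested in 4T1.

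Other genes whose mRNAs start with the TOP tract did not move as one. In MDA-MB-231, 3 of 15 were higher and 2 lower (7 and 2 under total counts, 7 and 3 with the block), with *EEF1A1*, the main elongation factor, at 11343 ± 31.0 CPM in DMSO and 15302 ± 204 CPM with ponatinib (log2 fold change 0.43) and *EIF4B* at 0.45, while *HNRNPA1* fell by 0.37. Of all genes tested, 27.2% were called higher and 26.8% lower in the human line, and 29.5% and 29.4% in 4T1. Total counts called 4641 of all 14610 genes tested higher and 3097 lower in the human line, and 4854 and 2935 of 13286 in 4T1. In 4T1, 8 of 16 were lower and 1 higher, with *Hnrnpa1* at -0.47, and 2 were lower and 1 higher under total counts. *Eef1a1* stood at -0.11 there (adjusted p = 0.26), a value that turned positive under total counts, and the lines differed (0.62, adjusted p = 0.00047). Of the hosts of small nucleolar RNAs that share this start, *SNHG1* fell by 1.18 and 0.49, and *SNHG12* by 0.79 in MDA-MB-231, while *EPB41L4A-AS1* rose there by 0.87. *RACK1*, a scaffold on the small subunit, fell in 4T1 (-0.27, adjusted p = 0.027, and 0.17 under total counts) and stood at -0.05 in MDA-MB-231, where total counts turned its sign.

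Genes known to control ribosomal protein synthesis were taken as a further list. *MYC* fell in MDA-MB-231 from 337 ± 7.78 to 243 ± 19.1 CPM (log2 fold change -0.47, adjusted p = 0.00033) and in 4T1 from 754 ± 65.6 to 407 ± 15.2 CPM (-0.89, adjusted p = 3.9e-07), and the lines differed (adjusted p = 0.0018). *DEPTOR*, an inhibitor of mTOR, rose in both lines, by 1.98 from a level of 0.816 ± 0.078 CPM in the human line and by 0.33 in 4T1. *RRAGB*, which takes part in amino acid sensing by mTORC1, rose by 1.02 and 1.30, in 4T1 from 0.633 ± 0.219 CPM. Of this list of 19 genes, 6 were higher and 5 lower in the human line, near the 27.2% and 26.8% of all genes tested, and 4 of 18 higher and 8 lower in 4T1, where 29.5% and 29.4% of all genes were called. Under total counts 7 were higher and 2 lower in the human line, and 7 and 6 in 4T1. Total counts called 4641 of all 14610 genes tested higher and 3097 lower in the human line, and 4854 and 2935 of 13286 in 4T1. With TMM, the calls of this list stand beside the 0 and 5 ribosomal protein genes in the human line and 2 and 18 in 4T1.

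**Figure D5:**
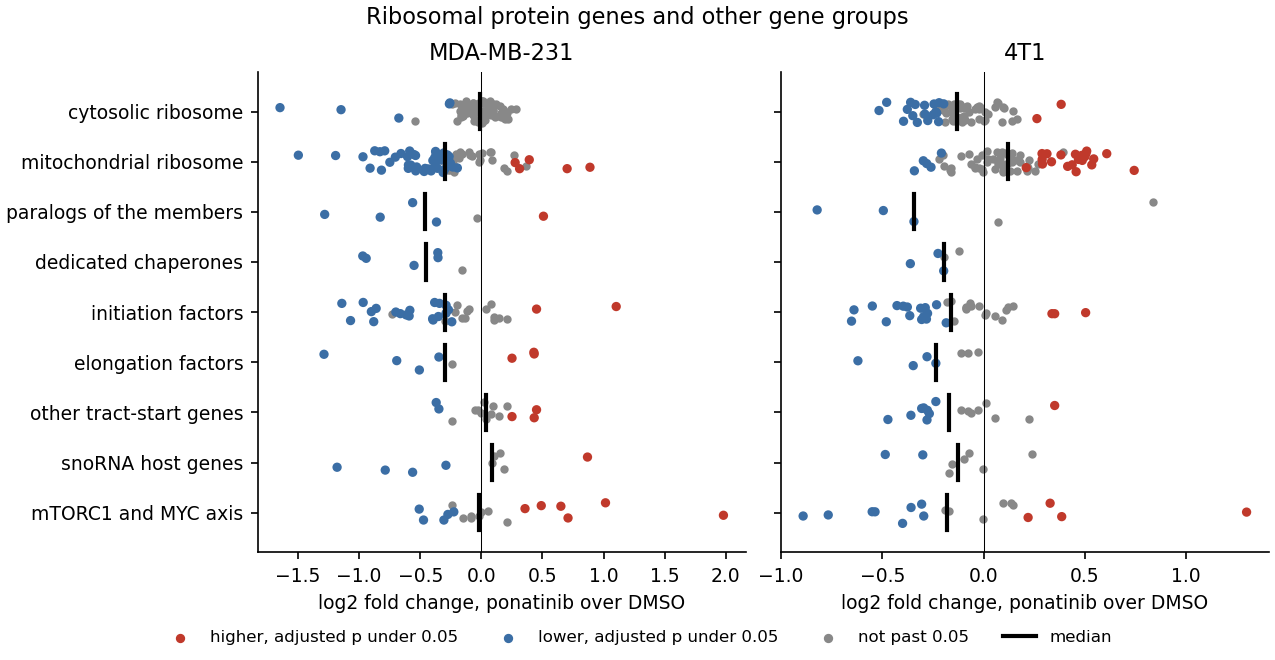
Log2 fold changes of each tested gene in the cytosolic ribosome and in 8 other groups, for both lines, with red and blue points for genes past the threshold, gray for the others and black bars for medians. The cytosolic genes crowd around a median of -0.01 in the human line and -0.13 in 4T1, while mitochondrial ribosomal genes have medians of -0.30 and 0.12. Some genes belong to more than 1 group.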

How the data were processed

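Gene counts of 12 RNA-seq libraries were used as deposited. Per the labels and methods, the authors removed adapter and poly-N reads, aligned the rest with HISAT2 and made whole-number counts per Ensembl gene with HTSeq. The versions, the annotation and the strand setting are not given in the sources used here, and HTSeq by default does not count reads that fall on 2 genes or align to several places. Symbols came from GENCODE v44 (hg38) and vM39 (GRCm39), which matched 81.9% of human and 91.1% of mouse identifiers, holding 99.3% and 99.8% of counts.

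Each line was tested with edgeR 4.0.16 in R 4.3.3 (limma 3.58.1): filterByExpr, TMM factors, quasi-likelihood test, and Benjamini-Hochberg adjustment over all genes. The filter kept 76 of the 77 genes in each line. Some genes that the rule below would name are not reported here. The lines were compared by the interaction of line and treatment over 16824 symbols present in both. The scripts were tested on simulated data. Alternatives were DESeq2 1.42.0, its size factors in edgeR, total counts, TMM without ribosomal protein genes, other filters, the replicate number as a block and leaving out each library.

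The replicate numbers come from the sample titles. The deviations of same-numbered DMSO and ponatinib libraries from their group means correlated at 0.345, 0.111 and 0.133 for the human line and at 0.213, 0.119 and 0.115 for 4T1. Libraries of 1 number were treated as pairs only with the replicate number as a block and in differences given by pair. The other fits left the replicate number out. Total counts limit precision as counting error only.

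Genes named were the 5 largest rises and 5 largest falls past the threshold in each line, any called in opposite directions, 11 members set by role, the 2 highest and 2 lowest by level, up to 3 per other gene list, and *MYC*. The genes and lists were chosen with earlier results of these data known.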

Additional observations from a re-analysis of the deposited data

Results flagged for a closer look

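For 5 ribosomal protein genes the response to ponatinib differed between the lines by the interaction test of edgeR, given as the log2 fold change in MDA-MB-231 minus that in 4T1. *RPL12* differed by 0.74 (adjusted p = 0.00026), *RPL34* by 0.54 (adjusted p = 0.012) and *RPL8* by 0.45 (adjusted p = 0.031). Leaving out single libraries raised the adjusted p of *RPL34* to as much as 0.080 and that of *RPL8* to 0.13. *RPL17* differed by -1.42 (adjusted p = 0.0060) and *RPL36A* by -1.08 (adjusted p = 0.0021), and these last 2 had 83 and 175 counts over the 6 human libraries. Groups of 3 libraries were not tested for outlying samples.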

How the results depend on the processing

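The numbers of ribosomal protein genes called in MDA-MB-231 (0 higher, 5 lower) became 19 and 21 with the replicate block, 14 and 3 under total counts, 2 and 12 with no filter, and 1 and 2 with at least 10 counts in every library. In 4T1 (2 higher, 18 lower) the block gave 30 lower and total counts 7 higher and 7 lower, and 31 genes differed between the lines with the block. Over the fits that left out 1 library, MDA-MB-231 had 0 to 7 higher and 3 to 18 lower, 4T1 had 2 to 4 higher and 10 to 24 lower, and 4 to 18 genes differed between the lines. Chosen after seeing the data, leaving out both replicate 1 libraries of MDA-MB-231 gave 10 higher and 19 lower, and keeping only genes that had 1000 counts or more throughout gave 2 lower. The subunit ratio on the log2 scale was 0.0164 in the human line and -0.0365 in 4T1 without the 5 genes with the most counts, and 0.0061 in 4T1 as the difference of medians. With DESeq2 size factors in edgeR, no named gene changed its direction or call.

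Some values near 0 changed sign and none of these passed the threshold. In MDA-MB-231, *RPLP2* was -0.00649 and *RPL22* -0.0081 with DESeq2. With no filter, *RPL11* was -0.00382, *RPL22* -0.0162, *RPL8* -0.00409 and *RPLP2* -0.0145. *RPL41* was 0.0248 with at least 10 counts. Under total counts *RPL41* was 0.0902, *RPS27A* 0.00238 and *RACK1* 0.0423, and in 4T1 *Rplp0* was 0.0946, *Rplp2* 0.0479, *Rpsa* 0.035 and *Eef1a1* 0.00724. Without single libraries of MDA-MB-231, *RPL11* ranged from -0.0955 to 0.11, *RPLP1* from -0.0253 to 0.216, *RPLP2* from -0.154 to 0.14, *RPSA* from -0.0553 to 0.161, *RPS19* from -0.042 to 0.213, *RPL22* from -0.0466 to 0.0666, *RPL41* from -0.103 to 0.0823, *RPL8* from -0.0722 to 0.135 and *RACK1* from -0.153 to 0.0187. In 4T1, *Rplp0* ranged from -0.112 to 0.0815, *Rplp2* from -0.139 to 0.0308, *Eif3c* from -0.0173 to 0.039 and *Mrpl12* from -0.101 to 0.255. The cause of these changes was not tested.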

Other observations

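The mitochondrial genome, which encodes its own ribosomal RNAs, took 5.25 ± 0.070% of counts in DMSO and 6.45 ± 0.098% with ponatinib in the human line (SD, n = 3), with no overlap, and 0.979 ± 0.218% and 1.11 ± 0.195% in 4T1, with overlap. Pseudogenes of the ribosomal protein genes took 0.190 ± 0.014% and 0.218 ± 0.019% in the human line and 0.531 ± 0.021% and 0.503 ± 0.041% in 4T1, with overlap in both. Of the pseudogenes tested, 10 of 100 were higher and 4 lower in the human line, and 0 of 71 higher and 6 lower in 4T1 by edgeR, where 27.2% and 26.8% of all genes were called in the former and 29.5% and 29.4% in the latter. The block gave 19 higher and 7 lower for the human line and 1 and 12 for 4T1, and total counts gave 15 and 3, and 1 and 0. Total counts called 4641 of all 14610 genes tested higher and 3097 lower in the human line, and 4854 and 2935 of 13286 in 4T1.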
